A study of Mus musculus with 6 samples.

Results

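Calcium buffers and calcium pumps of the cochlea were examined as a set of 9 genes, among 51802 gene symbols and as 39 of 128603 transcripts in the deposited tables. The members were taken by name and by no measured value, though with earlier results of these data known. They comprised 6 buffers (*Ocm*, *Calb1*, *Calb2*, *Pvalb*, *S100a1* and *S100b*) and 3 pumps (*Atp2b1*, *Atp2b2* and *Atp2a3*). RNA of whole cochleae from 2-month-old mice was sequenced in 3 wildtype samples (replicates 3, 4 and 5) and 3 heterozygous *Pou4f3(Δ/+)* samples (replicates 1, 2 and 3). Both groups were on the C57/BL6J background, a strain that carries an allele for age-related hearing loss. The mutants had 1 knock-in copy of *Pou4f3* with a small deletion and a base change that mirrors the human DFNA15 deafness allele, and the controls were littermates. The mutant allele is present in every cell of the animal, whereas *Pou4f3*, a transcription factor, is made mainly in hair cells. The labels did not give the number of animals behind a sample, so the errors below describe the spread between these samples.

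Calcium enters hair cells through the mechanically gated channels at their tips and through voltage-gated channels at their synapses. Mobile proteins with EF-hand loops bind it within the cytosol, and ATP-driven pumps then clear it, across the plasma membrane (PMCA, the *Atp2b* genes) or into the endoplasmic reticulum (SERCA, the *Atp2a* genes). In the cochlea oncomodulin (*Ocm*) is known for outer hair cells, calretinin (*Calb2*) and parvalbumin (*Pvalb*) for inner hair cells and spiral ganglion neurons, and S100b for Schwann cells and other glia. Loss of PMCA2 (*Atp2b2*), the pump of the hair bundle, causes deafness in mice.

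The 6 buffers share the canonical calcium-binding loop but differ in how many copies of it they carry. A search of the GENCODE M21 coding sequences (GRCm38) for 12 codons reading D-x-[D, N or S]-x-[D, N, S or G]-G, any 5, then E found 5 loops in *Calb2*, 4 in *Calb1*, 2 each in *Ocm* and *Pvalb*, and 1 each in *S100a1* and *S100b*. S100 proteins have a further, longer loop of their own kind, which this pattern cannot match. The first loops of the 2 parvalbumins, the third of *Calb2* and the loop of *S100a1* are shown, because these genes belong to families of close relatives that short reads must tell apart. Each is 36 bases within 1 coding exon and is printed along the coding strand, and capitals mark the codons at loop positions 1, 3, 5 and 12, whose residues hold the calcium ion. They lie at chr5:144024433-144024468 on the minus strand (*Ocm*), chr15:78202526-78202561 on the minus strand (*Pvalb*), chr8:110149362-110149397 on the minus strand (*Calb2*) and chr3:90511284-90511319 on the minus strand (*S100a1*).
Ocm: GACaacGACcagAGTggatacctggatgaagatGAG
Pvalb: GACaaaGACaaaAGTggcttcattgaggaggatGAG
Calb2: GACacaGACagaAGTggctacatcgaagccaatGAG
S100a1: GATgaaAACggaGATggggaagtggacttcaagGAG
In each pair compared within a subfamily the coding sequences were well apart, and *Atp2a3* was not compared with another SERCA gene. *Ocm* and *Pvalb* were identical at 60.6% of aligned coding bases with a longest shared run of 15 bases, *S100a1* and *S100b* at 65.6% with a run of 10, *Calb1* and *Calb2* at 63.0% with a run of 12, and *Atp2b1* and *Atp2b2* at 71.9% with a run of 20. No exon of the 9 genes overlapped an exon of another annotated gene. In the same annotation the buffer genes span chr5:144019804-144026670 (*Ocm*, ENSMUSG00000029618), chr4:15881264-15908064 (*Calb1*, ENSMUSG00000028222), chr8:110137502-110168210 (*Calb2*, ENSMUSG00000003657), chr15:78191114-78206400 (*Pvalb*, ENSMUSG00000005716), chr3:90511034-90514392 (*S100a1*, ENSMUSG00000044080) and chr10:76253853-76261159 (*S100b*, ENSMUSG00000033208). The pump genes span chr10:98914406-99026143 (*Atp2b1*, ENSMUSG00000019943), chr6:113743831-114042613 (*Atp2b2*, ENSMUSG00000030302) and chr11:72961169-72993044 (*Atp2a3*, ENSMUSG00000020788).

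Per length, the cochlear RNA held far more S100 and calretinin message than message of the parvalbumins or calbindin. Levels are given as FPKM (fragment counts scaled to transcript length and library size), summed over the transcripts of a gene, with the mean and SD over all 6 samples. *S100b* stood first at 779 ± 208 FPKM, followed by *S100a1* at 616 ± 53.1 and *Calb2* at 282 ± 35.4. *Pvalb* came next at 103 ± 8.63 FPKM, then *Ocm* at 26.2 ± 2.69 and *Calb1* at 5.11 ± 2.23.

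The order of *S100b* and *S100a1* in FPKM was not settled by these samples. *S100b* was the higher of the pair in 5 of 6 samples, with a ratio of FPKM from 0.915 to 1.76, and the difference of their means (163 FPKM) was smaller than the SD of *S100b*. Every other neighbouring pair kept its order in 6 of 6 samples, and the ranges did not touch. *S100a1* was 2.18 times as high as *Calb2* in mean FPKM (1.87 to 2.40 by sample), *Calb2* 2.74 times *Pvalb* (2.36 to 3.37), *Pvalb* 3.94 times *Ocm* (3.28 to 5.02) and *Ocm* 5.12 times *Calb1* (2.81 to 9.37). *S100b* made up 35.6 to 50.1% of the summed FPKM of the 6 buffers, *S100a1* 28.5 to 38.9% and *Calb2* 14.4 to 16.6%. The share of *Pvalb* was 4.56 to 7.06%, that of *Ocm* 1.09 to 1.93% and that of *Calb1* 0.166 to 0.414%.

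Among the pumps the endoplasmic reticulum pump SERCA3 (*Atp2a3*) was highest at 61.1 ± 5.56 FPKM, ahead of PMCA1 (*Atp2b1*), the widely expressed plasma membrane pump, at 29.5 ± 2.02 and PMCA2 (*Atp2b2*) at 8.93 ± 1.24. The order held in 6 of 6 samples. *Atp2a3* was 2.07 times *Atp2b1* in mean FPKM (1.87 to 2.61 by sample), and *Atp2b1* was 3.30 times *Atp2b2* (2.89 to 3.59). SERCA3 is known from platelets, lymphocytes and endothelium, and the tissue held the RNA of platelets and lymphocytes in every sample, as given below. In whole-tissue RNA, fewer cells of a type and less RNA per cell cannot be told apart, so these levels are averages over all cells of the sample. Among the 17136 genes tested, ranked by mean FPKM, *S100b* was number 38, *S100a1* 52, *Calb2* 162, *Pvalb* 589, *Atp2a3* 1200, *Atp2b1* 3058, *Ocm* 3532, *Atp2b2* 8516 and *Calb1* 10780.

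**Figure D1:**
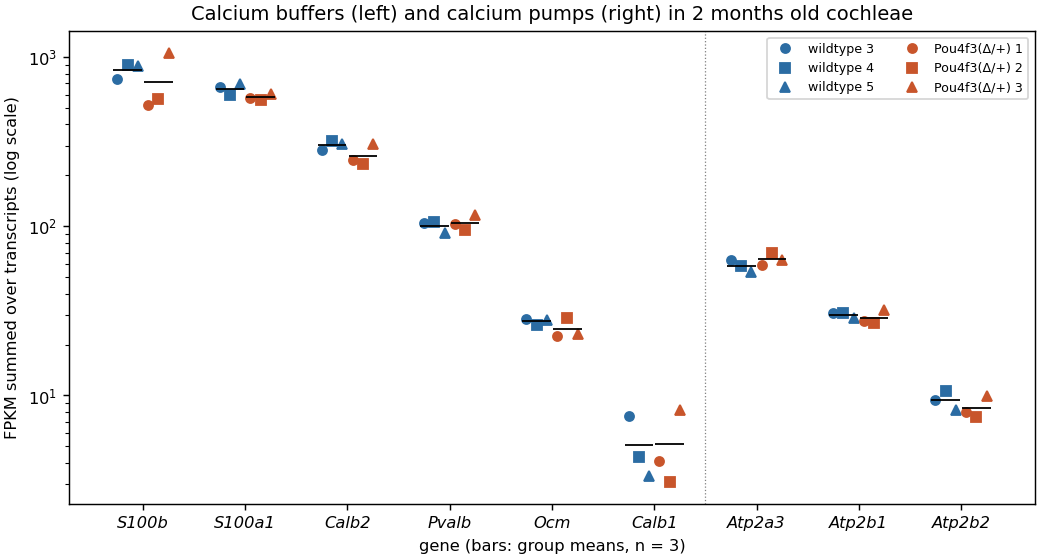
FPKM of the 6 buffers and the 3 pumps on a log axis, 1 point per sample by genotype, with the mean of each genotype (n = 3) as a bar. *S100b* (524.29 to 1062.44 FPKM) and *S100a1* (561.82 to 696.95 FPKM) overlap at the top, and *Calb1* lies lowest, at 3.07 to 8.25 FPKM.

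The summed counts of the libraries were 14295069 to 17696784, and 17136 genes passed the filter on low counts, all 9 members among them. On the first principal component, which held 32.5% of the variance, *Pou4f3(Δ/+)* replicates 1 and 2 lay at 23.2 and 40.2, and the other 4 samples, the third mutant included, between -21.5 and -11.7. All 12 genes that define the cochlea were tested. Of these 8 had a log2 fold change below 0, with a median of -0.18. By edgeR 3 had an unadjusted p under 0.05, where 7.64% of all genes did, and DESeq2 called 1, where it called 0.373% of all genes. The mean log2 CPM of the 12 was 6.09, 6.19 and 6.43 in wildtype and 5.76, 5.85 and 6.42 in the mutants, lowest in mutant replicates 1 and 2. Hair cell markers were present in every sample, and skeletal muscle markers summed to at most 7.24 FPKM. The *Pou4f3* count was 68, 72 and 88 in wildtype and 66, 97 and 52 in the mutants, and since the deposited values count both alleles this does not check the genotype. The fold change of each member is therefore also given without mutant replicate 3, and without mutant replicates 1 and 2 together.

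None of the 9 genes differed between *Pou4f3(Δ/+)* and wildtype cochleae beyond the spread between samples. By edgeR's quasi-likelihood test with Benjamini-Hochberg adjustment over all genes tested, 0 of 9 passed an adjusted p of 0.05, against 0 of 17136 genes in all (0%). By unadjusted p, 0 of 9 lay under 0.05, where 7.64% of all genes did, and DESeq2 gave 0 of 9 by adjusted p (0.373% of all genes) and 0 of 9 by unadjusted p (6.72%). Normalized counts scaled to library size (CPM) of the groups overlapped for all 9 members, where 12.7% of all genes had groups that did not overlap. The fitted log2 fold change, mutant over wildtype, was above 0 for 3 members and below 0 for 6, with a median of -0.13 beside -0.00 over all genes tested. The adjusted p-values of the members ran from 0.651 to 0.973.

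Oncomodulin, the outer hair cell buffer, had 28.30, 26.09 and 27.96 FPKM in wildtype replicates 3, 4 and 5 and 22.58, 28.78 and 23.20 FPKM in mutant replicates 1, 2 and 3. Mutant replicates 1 and 3 lay below every wildtype sample and replicate 2 above every one. The log2 fold change of *Ocm* was -0.13 (SE 0.13, 95% interval -0.44 to 0.17, edgeR adjusted p = 0.810), so the interval of the fold reached from 0.739 to 1.13. It was -0.07 without mutant replicate 3 and -0.24 without mutant replicates 1 and 2. The counts behind *Ocm* were low, at 199 to 281 per sample. Beside this, the 12 hair cell markers, of which *Ocm* was not one, had a mean log2 CPM of 2.80, 2.87 and 2.96 in wildtype and 2.75, 3.12 and 2.88 in the mutants. Of these markers 7 had a log2 fold change above 0 and 5 below, with a median of 0.07, against -0.13 for *Ocm*. Mutant replicate 2 was highest and mutant replicate 1 lowest both in that marker level and in *Ocm* FPKM, whereas mutant replicate 3 was below every wildtype sample in *Ocm* alone, and the part of the markers in the *Ocm* values was not tested.

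Parvalbumin, the buffer of fast-firing neurons and inner hair cells, had 104.72, 105.75 and 91.66 FPKM in wildtype and 103.93, 95.65 and 116.35 FPKM in the mutants. The groups overlapped throughout, with the lowest value in wildtype replicate 5 and the highest in mutant replicate 3. *Pvalb* gave a log2 fold change of 0.06 (SE 0.09, 95% interval -0.14 to 0.26, edgeR adjusted p = 0.870). It was 0.0019 without mutant replicate 3 and 0.19 without mutant replicates 1 and 2, and 0.0009 without wildtype replicate 5, none of them called.

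Calretinin had 282.42, 318.00 and 308.71 FPKM in wildtype and 245.26, 233.79 and 305.98 FPKM in the mutants. Mutant replicates 1 and 2 were the lowest samples of all, and mutant replicate 3 lay within the wildtype range. The log2 fold change of *Calb2* was -0.21 (SE 0.11, 95% interval -0.46 to 0.03), with an unadjusted p of 0.0761, the smallest of the 9 members, and an edgeR adjusted p of 0.651. Without mutant replicate 3 it was -0.32 (edgeR adjusted p = 0.118), and with that replicate as the sole mutant sample it was -0.01. The 12 spiral ganglion neuron markers followed the same split, with a mean log2 CPM of 5.34, 5.18 and 5.36 in wildtype and 4.99, 4.86 and 5.51 in the mutants, and 10 of the 12 had a log2 fold change below 0. Their part in the *Calb2* values was not tested.

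Calbindin (*Calb1*) was the scarcest buffer in FPKM and varied widely between samples, with an SD of 43.5% of its mean summed FPKM. It had 7.56, 4.35 and 3.34 FPKM in wildtype and 4.10, 3.07 and 8.25 FPKM in the mutants, so 1 sample of each genotype lay well above the other 4. Its log2 fold change was 0.04 (SE 0.26, 95% interval -0.54 to 0.62, edgeR adjusted p = 0.973), and a fold between 0.687 and 1.54 lay within the interval. The SD of its log2 CPM over the 6 samples was 0.38, above that of 93.6% of the 2413 genes of like level. Leaving out samples moved its log2 fold change to -0.25 without mutant replicate 3 and to 0.50 without mutant replicates 1 and 2.

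S100b, the glial protein, differed widely between mutant samples. *S100b* had 740.75, 895.97 and 882.58 FPKM in wildtype and 524.29, 567.34 and 1062.44 FPKM in the mutants. Mutant replicates 1 and 2 were below every wildtype sample, and mutant replicate 3 was above every one. The log2 fold change over all samples was -0.23 (SE 0.24, 95% interval -0.77 to 0.31, edgeR adjusted p = 0.809).

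That mean joined mutant samples on both sides of the wildtype. Without mutant replicate 3 the log2 fold change of *S100b* was -0.61 (SE 0.11, edgeR adjusted p = 0.0465), making it the only member called in any fit, in one that called 193 of 17513 genes (1.1%). The sample left out there was the mutant with the highest *S100b*, so this SE and adjusted p depend on that choice and describe the remaining samples only. With mutant replicates 1 and 2 left out instead the log2 fold change of *S100b* was 0.32. The 10 Schwann cell markers had a mean log2 CPM of 6.48, 6.67 and 6.66 in wildtype and 6.39, 6.28 and 6.68 in the mutants, and 8 of the 10 had a log2 fold change below 0, with a median of -0.13. Mutant replicates 1 and 2 were thus the 2 lowest samples for the marker level as they were for *S100b*, and the part of Schwann cell content in the *S100b* values was not tested.

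S100a1, which binds SERCA and the ryanodine receptor in muscle, had 662.90, 595.60 and 696.95 FPKM in wildtype and 572.88, 561.82 and 603.67 FPKM in the mutants. All mutant samples lay between 561.82 and 603.67 FPKM, and wildtype replicate 4 fell inside that range. The log2 fold change of *S100a1* was -0.17 (SE 0.09, 95% interval -0.37 to 0.03, unadjusted p = 0.0807, edgeR adjusted p = 0.653). It differed little between the mutant samples, at -0.19 without mutant replicate 3 and -0.13 without the other two.

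PMCA1 had 30.80, 30.70 and 28.74 FPKM in wildtype and 27.75, 26.83 and 32.06 FPKM in the mutants. *Atp2b1* was the steadiest member, with an SD of log2 CPM of 0.06, and its log2 fold change of -0.04 (SE 0.07, 95% interval -0.21 to 0.12, edgeR adjusted p = 0.894) had the narrowest interval of the 9. PMCA2 had 9.45, 10.63 and 8.17 FPKM in wildtype and 7.96, 7.48 and 9.87 FPKM in the mutants. For *Atp2b2* the log2 fold change was -0.16 (SE 0.11, 95% interval -0.41 to 0.10, edgeR adjusted p = 0.739). Both plasma membrane pumps were lowest in mutant replicates 1 and 2, as was the level of the cochlea-defining genes, which unlike *Atp2b2* was highest in wildtype replicate 5 and whose part in these values was not tested. Without mutant replicate 3 the log2 fold change was -0.09 for *Atp2b1* and -0.25 for *Atp2b2*, and without mutant replicates 1 and 2 it was 0.06 and 0.03. That of *Atp2b2* was -0.07 without wildtype replicate 4, and no such value was called.

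SERCA3 had 62.85, 58.03 and 53.77 FPKM in wildtype and 58.79, 70.01 and 63.01 FPKM in the mutants. The highest value was in mutant replicate 2 and the lowest in wildtype replicate 5, with the other samples mixed. *Atp2a3* had a log2 fold change of 0.13 (SE 0.10, 95% interval -0.09 to 0.36, edgeR adjusted p = 0.744), the largest above 0 among the members, with 0.15 without mutant replicate 3 and 0.11 without mutant replicates 1 and 2. With single samples left out it ran from 0.05 (without mutant replicate 2) to 0.20 (without mutant replicate 1). Values of blood cell and endothelial markers stand beside it. All 9 B cell markers had a log2 fold change above 0, with a median of 0.88, and their mean log2 CPM was 3.96, 4.21 and 3.58 in wildtype and 5.11, 5.28 and 4.36 in the mutants. For platelets and megakaryocytes 7 of 8 markers were above 0, with a median of 0.12 and a mean log2 CPM of 5.86, 6.07 and 5.87 in wildtype and 5.998, 6.33 and 5.80 in the mutants. For T and natural killer cells 7 of 8 were above 0, with a median of 1.02, 5 of the 8 under an unadjusted p of 0.05 by edgeR and 1 called by DESeq2, and a mean log2 CPM of 1.81, 1.86 and 1.75 in wildtype and 2.79, 3.24 and 1.54 in the mutants. The 8 endothelial markers lay the other way, 3 above 0 and 5 below with a median of -0.05, and had a mean log2 CPM of 5.14, 5.18 and 5.33 in wildtype and 5.15, 5.16 and 5.24 in the mutants. DESeq2 called 5 of the 9 B cell markers and edgeR 0, with all 9 under an unadjusted p of 0.05 in both. Over all genes tested DESeq2 called 0.373% and edgeR 0%, and 7.64% had an unadjusted p under 0.05 by edgeR and 6.72% by DESeq2. The part of blood and endothelial cells in the *Atp2a3* values was not tested.

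**Figure D2:**
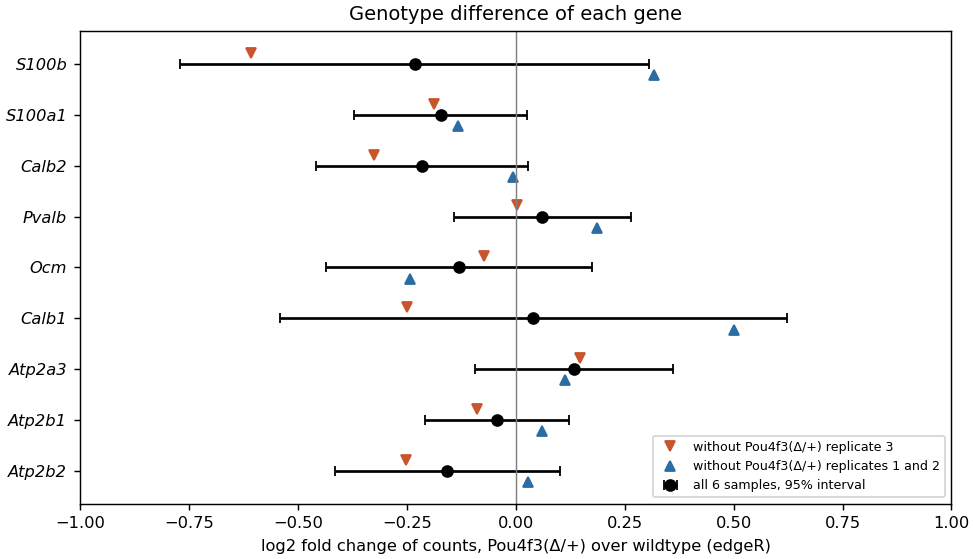
Log2 fold change of each member, *Pou4f3(Δ/+)* over wildtype, with its 95% interval over all samples and with the values without mutant replicate 3 and without mutant replicates 1 and 2. All 9 intervals cross 0, and *S100b* moves from -0.61 to 0.32 between the 2 exclusions.

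The split of the mutant samples was common to several members. Replicates 1 and 2 had the 2 lowest CPM of all 6 samples in 5 of 9 members, namely *Calb2*, *S100a1*, *S100b*, *Atp2b1* and *Atp2b2*, where 15.8% of all genes tested had this order. They had the 2 highest in 0 of 9 members, where 14.9% of all genes did. The members share the same libraries and are not independent, so these counts describe the samples.

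Markers of cerebellum and brainstem, tissue that adjoins the auditory nerve and in which *Calb1*, *Calb2* and *Atp2b2* are also made, followed a related order. Of the 8 markers 5 were tested, 1 above 0 and 4 below, with a median of -0.05. By edgeR 1 of the 5 was under an unadjusted p of 0.05, where 7.64% of all genes were. Their summed level was 47.3, 50.8 and 33.5 FPKM in wildtype and 36.4, 34.8 and 51.3 FPKM in the mutants. It was low in wildtype replicate 5 and mutant replicates 1 and 2, the samples in which *Atp2b2* FPKM was lowest and in which *Calb1* CPM was lowest too. The glial gene *Gfap* was a large part of this sum, at 14.88 to 32.19 FPKM. Of the neuronal markers in the list, *Pcp2* was at most 0.33 FPKM, *Neurod1* at most 0.10 and *Gabra6* at 0 in 5 of 6 samples. The list also holds *Car8* and *Cbln1*, whose levels are not given here, so these values do not cover every neuronal marker. The part of such tissue in the values of *Calb1*, *Calb2* and *Atp2b2* was not tested.

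**Figure D3:**
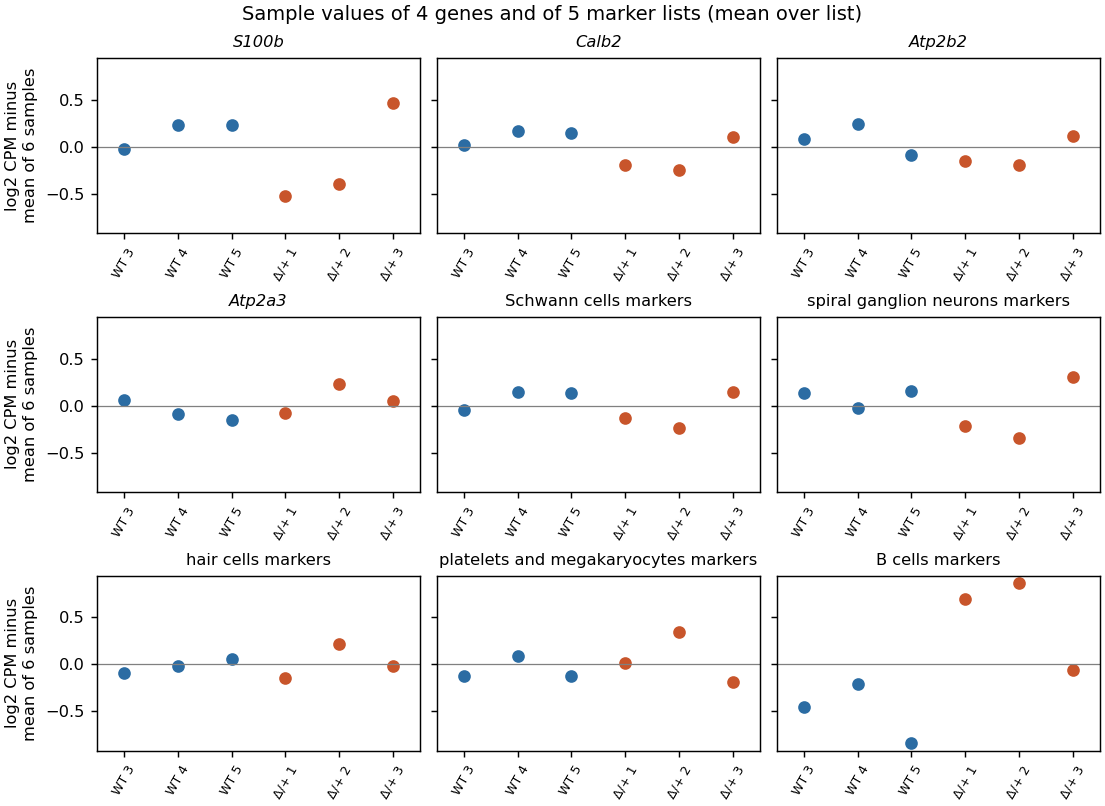
Log2 CPM of *S100b*, *Calb2*, *Atp2b2* and *Atp2a3* and the mean log2 CPM of 5 marker lists in each sample, centred on the mean over the 6 samples. Mutant replicates 1 and 2 lie low for *S100b*, *Calb2*, Schwann cell and spiral ganglion neuron markers, while mutant replicate 3 lies at or above the wildtype samples in the neuron and Schwann cell panels.

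The sum over a gene can hide its transcripts, so these were examined too. Of the 39 transcripts of the 9 genes, 22 passed the filter, 8 were listed at 0 in every sample and 14 made up at least 10% of their gene. *S100b* had 1 transcript, and a single one carried 100% of *Calb2*, 99.1% of *Pvalb*, 98.9% of *S100a1* and 86.1% of *Atp2b1*. *Ocm* was divided between Ocm-201 (77.1%) and Ocm-203 (22.9%). *Calb1* was divided between the coding Calb1-201 (71.8%) and Calb1-202 (27.9%), which is annotated as a retained intron and made up 0.65 to 41.4% of *Calb1* FPKM by sample. In FPKM, Calb1-201 had 4.35, 3.76 and 2.68 in wildtype and 3.20, 3.05 and 4.98 in the mutants, and Calb1-202 had 3.13, 0.59 and 0.66 in wildtype and 0.90, 0.02 and 3.27 in the mutants. Wildtype replicate 3 and mutant replicate 3 were highest in both, and Calb1-202 rested on at most 37.8 counts in any sample. *Atp2b2* was spread over Atp2b2-203 (35.9%), Atp2b2-206 (32.3%), annotated for nonsense-mediated decay, and Atp2b2-201 (26.6%).

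No transcript of the members was called by edgeR (0 of 22, and 0% of 38347 tested) or by DESeq2 (0.339% of all). Unadjusted p lay under 0.05 in 2 of 22, where 4.14% of all transcripts did, and the same 2 had groups whose FPKM did not overlap, where 10.5% of all did. The first was Atp2a3-201, with 34.12, 32.26 and 28.42 FPKM in wildtype and 37.56, 41.35 and 36.41 FPKM in the mutants. Every mutant sample was above every wildtype sample, the means being 31.6 ± 2.91 and 38.4 ± 2.59 FPKM. Its log2 fold change was 0.28 (SE 0.10), with an edgeR adjusted p of 0.999, and stayed between 0.21 and 0.34 with any 1 sample left out.

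The other main transcript of the gene, Atp2a3-203, had 22.47, 16.87 and 18.11 FPKM in wildtype and 12.97, 20.00 and 18.88 FPKM in the mutants. Its log2 fold change was -0.15 (SE 0.20). Atp2a3-201 thus made up 54.3, 55.6 and 52.9% of *Atp2a3* FPKM in wildtype and 63.9, 59.1 and 57.8% in the mutants, a difference that was not tested. The 2 transcripts differ by a coding exon of 73 bases near the end of the reading frame, at chr11:72989475-72989547 on the plus strand (GRCm38, GENCODE M21). It is shown in capitals with 15 bases of the exon on either side as spliced in Atp2a3-201, since reads over these junctions are among those that tell the transcripts apart.
Atp2a3-201: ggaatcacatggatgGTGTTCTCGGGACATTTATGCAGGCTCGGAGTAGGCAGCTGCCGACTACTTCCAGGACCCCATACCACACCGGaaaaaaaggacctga
The exon is absent from Atp2a3-203.

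The second was Atp2b2-204, a retained intron transcript that made up 1.81% of *Atp2b2*. It had 0.23, 0.28 and 0.23 FPKM in wildtype and 0.10, 0.07 and 0.06 FPKM in the mutants, with a log2 fold change of -1.67 (SE 0.49, edgeR adjusted p = 0.999). It rested on 13.7, 13.8 and 13.98 expected counts in wildtype and 5.98, 3.80 and 2.88 in the mutants. It is named because its groups did not overlap, which was seen only in its values.

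**Figure D4:**
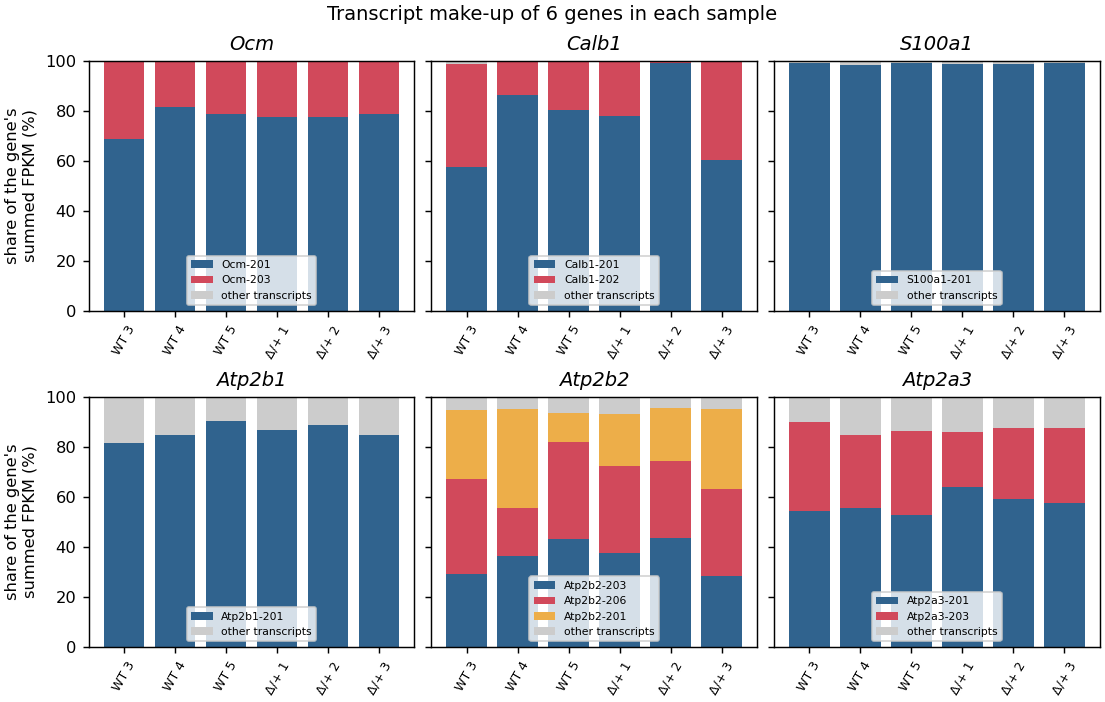
Share of each transcript in the summed FPKM of its gene (stacked bars, percent) for 6 members in each sample, with transcripts that made up less than 10% of the gene drawn in grey. Atp2a3-201 makes up 52.9 to 55.6% of *Atp2a3* in wildtype and 57.8 to 63.9% in the mutants, and the share of Calb1-202 varies from 0.65 to 41.4% between samples.

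Other genes of calcium handling were read from the same fit. Of 82 genes in 7 lists, 66 were tested, 24 with a log2 fold change above 0 and 42 below. EdgeR called 0 of the 66 (0% of all genes tested), DESeq2 called 2 (0.373% of all), and 6 had an unadjusted p under 0.05 by edgeR (7.64% of all). The median log2 fold change was -0.04.

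The remaining calcium ATPases counted 6, none of them called. *Atp2a2* (SERCA2), the widespread SERCA, had 62.0 ± 1.27 FPKM in wildtype and 61.3 ± 4.48 in the mutants, a level close to that of the member *Atp2a3*. *Atp2c1*, a pump of the Golgi, had 63.3 ± 4.50 FPKM in wildtype and 66.04 ± 1.99 in the mutants. *Atp2c2* was lower in every mutant sample (3.11 ± 0.316 and 2.16 ± 0.459 FPKM, log2 fold change -0.53, edgeR adjusted p = 0.643), and *Atp2b4* (PMCA4) had a log2 fold change of 0.18 (SE 0.18).

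Among 9 sodium-calcium exchangers 3 were above 0 and 6 below. *Slc8a3* (NCX3) had 8.52, 9.17 and 9.49 FPKM in wildtype and 5.78, 5.14 and 8.51 FPKM in the mutants. Its log2 fold change was -0.59 (SE 0.13), which passed in DESeq2 (adjusted p = 0.0213) and did not in edgeR (adjusted p = 0.643). *Slc24a3* gave -0.35 (SE 0.12, edgeR adjusted p = 0.643), and *Slc24a2* and *Slc8b1*, the most abundant of the list, gave -0.05 and -0.01.

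In the mitochondrial uptake list 4 of 7 genes were above 0 and 3 below, with *Smdt1* highest (64.4 FPKM) and a log2 fold change of 0.01, while *Letm1* and *Micu2* gave 0.07 and -0.07. In the list of the endoplasmic reticulum store 9 of 21 were above 0 and 12 below. Calreticulin (*Calr*), its main calcium store protein, had 589 ± 54.7 FPKM in wildtype and 518 ± 112 in the mutants, and calnexin (*Canx*) 247 ± 5.504 and 240 ± 22.8. *Rcn3*, a calcium-binding protein of the secretory pathway, had 44.19, 47.11 and 55.31 FPKM in wildtype and 31.84, 28.31 and 36.81 FPKM in the mutants, with no overlap. The log2 fold change of *Rcn3* was -0.64 (SE 0.14), called by DESeq2 (adjusted p = 0.00726) and not by edgeR (adjusted p = 0.643), and *Calu* gave -0.16 (SE 0.08). Of the SERCA regulators only phospholamban (*Pln*) was tested, at -0.01 (SE 0.38).

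Of the calmodulins and calcium sensors 13 of 20 were tested, 3 above 0 and 10 below, with none under an unadjusted p of 0.05, and *Cabp2* was listed at 0 in every sample. *Calm2* had 386 ± 20.0 and 371 ± 33.8 FPKM and *Calm3* 229 ± 5.42 and 213 ± 24.4. *Hpca* and *Hpcal1*, with the smallest p of the list, gave -0.73 (SE 0.46) and -0.17 (SE 0.09).

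The other S100 genes gave 3 above 0 and 6 below of 9 tested, and *S100a5*, *S100g* and *S100z* were listed at 0. *S100a8* and *S100a9*, which neutrophils make in quantity, had 3049 ± 303 and 5468 ± 515 FPKM in wildtype and 3328 ± 359 and 6147 ± 356 in the mutants, several times the level of *S100b* and *S100a1*. The 8 neutrophil markers were likewise high, with a mean log2 CPM above 9 in every sample. *S100a16* was lower in every mutant sample (30.4 ± 2.19 and 24.1 ± 1.79 FPKM, log2 fold change -0.32, edgeR adjusted p = 0.643), and *S100a4* gave -0.54 (SE 0.21) with groups that overlapped.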

How the data were processed

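The authors deposited 1 table per sample with expected counts and FPKM for each Ensembl transcript. The submitters' processing notes name the build mm8 and DESeq2, and the aligner, counter and annotation are not given in the sources used here. FPKM values were deposited as computed by the authors per spliced transcript length. Libraries were made with a poly(A) module or an rRNA removal kit, per the labels, without saying which sample had which. Of the transcripts 99.6% were found in GENCODE M21 (GRCm38), which gave all coordinates and sequences. Library totals were 14295069 to 17696784, and counts behind the members ranged from 199 to 23121 per sample.

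Both values were summed over the transcripts of each symbol. Summed counts were rounded and tested with edgeR 4.0.16 (R 4.3.3), with filterByExpr (minimum count 10, minimum total 15), TMM, the quasi-likelihood test and Benjamini-Hochberg adjustment over all genes or transcripts tested. SE was computed from the fold change and its F statistic. Log2 CPM used a prior count of 2. Alternatives were DESeq2 1.42.0, its size factors, no filter, a mean FPKM of at least 5, limma 3.58.1 on log2(FPKM + 0.5), with 0.1 and 1 in its place, and samples left out. The procedure was tested on simulated data. The members and lists were chosen with earlier results of these data known. Named were all members and transcripts with at least 10% of a member's FPKM. In each calcium list the 2 genes with the smallest p and the 2 with the highest FPKM were named. So were the 3 genes nearest in profile to each of the 3 members with the largest SD of log2 CPM. A few items that this rule covers are not reported here.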

Additional observations from a re-analysis of the deposited data

How the results depend on the processing

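Under DESeq2, its size factors, either filter and the leave-one-out fits, the 9 members gave 0 calls, with 1 exception, *S100b* without mutant replicate 3, so the calls ranged from 0 to 1, and members with an unadjusted p under 0.05 from 0 to 3. With mutant replicates 1 and 2 left out together, 1 member had an unadjusted p under 0.05, and the sign turned for *S100b* (0.32), *Atp2b1* (0.0595) and *Atp2b2* (0.0290); there the lone mutant is assumed to vary like the wildtype. *S100b* ran from -0.61 to -0.05 with 1 sample left out. *Calb1* turned to -0.0210, -0.0256 and -0.0166 with limma on log2(FPKM + 0.5), 0.1 and 1, and ran from -0.25 to 0.26 with 1 sample left out. Of the transcripts, the sign turned with 1 sample left out for Ocm-203 (-0.44 to 0.0336), Atp2b2-206 (-0.27 to 0.11), Atp2b2-201 (-0.66 to 0.27), Calb1-201 (-0.20 to 0.21), Pvalb-201 (-0.0165 to 0.0731), Calb1-202 (-1.70 to 0.48) and Atp2a3-203 (-0.29 to 0.0228). DESeq2 called 9 genes of the calcium and marker lists (0.373% of all genes tested) and edgeR 0 (0% of all). By expected counts, which are not per length, 4 of 6 buffers kept their rank, since *Ocm* and *Calb1* changed places, and *S100b* was above *S100a1* in 6 of 6 samples and *S100a1* above *Calb2* in 4 of 6. The cause of these changes was not tested, apart from length in the last. Over all genes, the fits called 64 by DESeq2, 9 without a filter, 193 without mutant replicate 3, 6 without mutant replicates 1 and 2, 3 without wildtype replicate 4, 1 with limma on log2(FPKM + 0.1), and 0 in each of the others. No paired analysis was possible because the labels do not pair samples between the groups.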

Other observations

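For the 3 members with the largest SD of log2 CPM, the genes of most similar profile were found. These had the smallest root mean square difference of centred log2 CPM over the 6 samples. *S100b* was nearest to *Rnf112* (0.07), *Arsi* (0.08) and *Cyp46a1* (0.09). *Calb1* was nearest to *Crhr1* (0.10), *Dtwd2* (0.11) and *2310040G24Rik* (0.11). *Calb2* was nearest to *Impact*, *Stk39* and *Tdrkh* (each 0.02). All profiles share the same 6 libraries, so these values are descriptions.

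The ratio of 2 buffers within a sample also varied. *Calb2* over *Calb1* in FPKM was 37.4, 73.1 and 92.4 in wildtype and 59.8, 76.2 and 37.1 in the mutants, with the lowest ratio of each genotype in the sample where *Calb1* was highest.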
